A study of Mus musculus with 12 samples.

Results

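The genes described here encode the Fc receptors of macrophages for IgG: Fcgr1, Fcgr2b, Fcgr3 and Fcgr4, the shared signalling chain Fcer1g, and Fcgrt, the neonatal receptor. Members were taken by symbol, as array probe sets carrying that symbol and no other, and 5 of the 6 named genes had such a probe set, 1 each, among 19938 genes with 1 symbol. Fcgrt had no probe set with its symbol in the annotation used and was not analysed here.

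Transcripts were measured on 12 one-colour Affymetrix arrays of cultured peritoneal macrophages from female mice, 3 arrays in each of 4 groups. Cells came from wild-type C57Bl/6 mice or from Nfkbiz-/- mice, in which the gene for the nuclear IκB protein IκBζ is disrupted, and they were either given 1 µg/ml lipopolysaccharide (LPS) for 4 h or left untreated. All groups shared the same peritoneal lavage and 2 h of culture before treatment, with no sort named. The protocol text names C57Bl/6 for all 12 samples, and the construct of the knockout allele was not given in the sources used here. Nothing in the labels tells separate mice from repeated samples of a group, so a p-value here reflects only how far these arrays vary, which could be technical. The targeted gene Nfkbiz read 406 to 463 in untreated wild-type cells and 267 to 286 in untreated knockout cells, and with LPS 3080 to 3786 and 1335 to 1634. It was lower in knockout in both (limma adjusted p = 0.0401 and 7.23e-05), and where its probes lie relative to the disrupted part was not checked.

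Fc gamma receptors bind the constant part of IgG and let phagocytes take up antibody-coated particles. FcγRI (Fcgr1) binds monomeric IgG with high affinity, FcγRIII (Fcgr3) and FcγRIV (Fcgr4) bind immune complexes, and all of these signal through the ITAM of the common γ chain (Fcer1g), which Src-family kinases phosphorylate and Syk then binds. FcγRIIB (Fcgr2b) carries an inhibitory ITIM that recruits the phosphatase SHIP-1, so the balance between it and the activating receptors sets the response of a macrophage to immune complexes. In RefSeq's table of assembly GRCm38.p6, Fcgr2b, Fcgr4 and Fcgr3 are consecutive protein-coding genes on chromosome 1, Fcer1g lies a few genes further along, and Fcgr1 is on chromosome 3.

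Levels are linear RMA intensities. Each difference is a log2 value, with its standard error (SE) and adjusted p (Benjamini-Hochberg over the 19938 genes) from 1 limma fit to all 12 arrays. Calls rest on an adjusted p below 0.05. Probe sets differ in brightness, so no level of a gene is set against that of another gene.

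Of 14 macrophage markers 12 were measured, and 0 stayed below the median of all gene values (140.8) on every array. Over the 12 arrays Adgre1 averaged 6493, Csf1r 7433, Itgam 7637 and Lyz2 14222. The lowest averages of that list were those of Icam2 (788), Timd4 (486) and Cd5l (58.8). All 8 natural killer cell markers and 6 of 7 measured T cell markers stayed below the median of all gene values on every array. Eosinophil markers did so in 5 of 6 cases and neutrophil markers in 5 of 10, including Ly6g and S100a9, while others of that list were bright, such as Mmp8 (4068), Csf3r (2052) and Mmp9 (1217). Of 11 markers of small peritoneal macrophages and dendritic cells 3 stayed below it, and H2-Ab1 (4991) and Cd74 (4765) were bright. Of 5 measured monocyte markers 1 stayed below it, as did 5 of 9 mesothelial and fibroblast markers. B cell and mast cell markers were above that median for 6 of 8 and 7 of 9 genes on at least 1 array. Their values are given with Fcgr2b and with Fcgr4.

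Both knockout arrays numbered 2 stood apart in genes chosen after their values were seen. The resident macrophage gene Timd4 read 1646 and 2608 on them, untreated and with LPS, against 313 to 407 and 719 to 1156 on the other knockout arrays. Cd5l read 164 and 118 against 50.8 to 62.9, and Trem1 81.6 and 196 against 355 to 393 and 3336 to 3769. Treml4, of the monocyte list, read 512 and 471 against 149 to 222 and 126 to 242. Mean log2 levels of the 12 macrophage markers were 11.77 and 11.61 on these arrays and 11.41 to 11.58 on the other knockout arrays. That list holds Timd4 and Cd5l, so its mean is not separate from them. The summed small macrophage and dendritic cell markers were 10440 and 11340 against 16790 to 18870 on the other knockout arrays. On wild-type arrays this sum was 10640 to 16420 untreated and 12510 to 13580 with LPS, also below the other knockout arrays. The part of these differences between knockout arrays in the receptor levels was not tested. Without both knockout arrays numbered 2 the same number of receptor genes was called in each comparison. Fcgr3 then stood at -1.24 for LPS in knockout and at -0.67 between genotypes with LPS.

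Among the measured receptor genes only Fcgr3 was called for LPS in the planned fit. This gene encodes the activating low-affinity receptor. It read 6712, 7383 and 7087 on the untreated wild-type arrays and 4364, 4570 and 4968 with LPS. In knockout cells it read 6719, 5319 and 6968 untreated and 2710, 1905 and 3100 with LPS. Each LPS-treated array lay below each untreated array of its genotype, and with LPS each knockout array lay below each wild-type array, whereas the untreated genotypes overlapped.

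In wild type, Fcgr3 fell with LPS from 7060 ± 337 to 4634 ± 307 (SD, n = 3), a log2 difference of -0.61 (SE 0.16, limma adjusted p = 0.0125). This was 1.52-fold lower, and a test against a minimum change of 1.2-fold did not call it (adjusted p = 0.154). In knockout cells it fell from 6335 ± 889 to 2572 ± 610, which was 2.50-fold lower (log2 difference -1.32, SE 0.16, limma adjusted p = 4.6e-05). Both calls held in the 12 fits that left out 1 array each, at adjusted p up to 0.0498 and 4.01e-04, and under the 3 other array scalings, with values from -0.62 to -0.45 in wild type and from -1.37 to -1.11 in knockout. The wild-type call was lost when both LPS-treated arrays numbered 2 and 3 were left out together (-0.69, adjusted p = 0.0851). By the replicate numbers in the titles, the knockout fell by 1.31, 1.48 and 1.17 on the log2 scale, and wild type by 0.62, 0.69 and 0.51. In arrays of whole cultures, fewer cells of a type and less RNA per cell cannot be told apart. Of 12 macrophage markers LPS lowered 5 and raised 2 in wild type, against 18.5% and 9.53% of all genes. In knockout it lowered 5 and raised 3, against 23.8% and 21.9%. In wild type Alox15 (-0.76), Mertk (-0.69), Csf1r (-0.69), Cd68 (-0.52) and Lyz2 (-0.22) fell, while Icam2 (1.33) and Cd14 (0.55) rose. Their relation to the fall of Fcgr3 was not tested.

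With LPS, Fcgr3 was 1.84-fold lower in knockout than in wild type, by a log2 difference of -0.88 (SE 0.16, limma adjusted p = 0.00677), and 228 of the 19938 genes had a more negative difference. That call held in the 12 fits without 1 array (-1.03 to -0.67, adjusted p up to 0.0328). It missed the threshold when only the 6 compared arrays were fitted (adjusted p = 0.0555), against a minimum change of 1.2-fold (adjusted p = 0.0644) and without both wild-type LPS arrays numbered 2 and 3 (-0.79, adjusted p = 0.16). In untreated cells the genotypes did not pass the test (-0.17, 95% interval -0.51 to 0.18, adjusted p = 0.789).

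The test of whether the LPS responses of Fcgr3 differed between genotypes gave -0.71 (SE 0.22, limma adjusted p = 0.183), which did not pass. Same-numbered untreated and LPS arrays deviated together in the knockout but not throughout in wild type. With the replicate number as a block in the knockout, the same difference had an SE of 0.12 and passed (adjusted p = 0.0161). Its adjusted p over all alternatives ran from 0.0161 to 1, the highest against a minimum change of 1.2-fold.

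Called members are read against all genes. In wild type LPS changed 1 of 5 members, which fell, where 28.1% of all genes were called, 9.53% higher and 18.5% lower. In knockout cells it also changed 1 of 5, lower, against 45.7% of all genes, 21.9% higher and 23.8% lower. Between genotypes with LPS 1 of 5 was called, lower, against 8.14% of all genes, 3.28% higher and 4.87% lower. Without LPS 0 of 5 were called, against 0.0752%. For the difference of responses 0 of 5 were called, against 0.747%. Arrays of the groups compared did not overlap for 1 of 5 members with LPS in wild type, against 47.5% of all genes (24.3% lower), for 1 of 5 in knockout, against 53.7% (25.5% lower), and for 0 of 5 between untreated genotypes, against 16.3%. At an unadjusted p under 0.05, limma gave 0 of 5 members in the untreated comparison, against 8.68% of all genes, and 1 of 5, Fcgr3, for the difference of responses, against 13.1%.

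**Figure D1:**
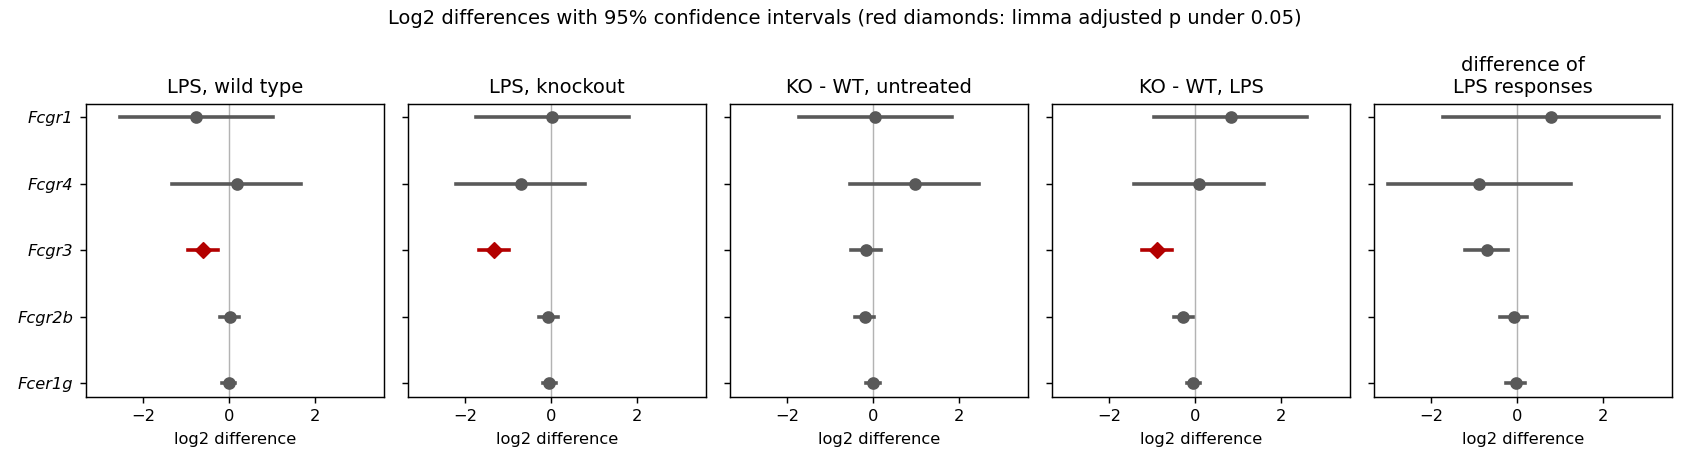
Log2 differences of the 5 measured Fc receptor genes in each of the 5 comparisons, with 95% confidence intervals from the limma fit. Red diamonds mark an adjusted p under 0.05, which Fcgr3 reached in 3 comparisons (-0.61, -1.32 and -0.88), while the intervals of Fcgr1 and Fcgr4 were the widest of the 5.

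Fcgr2b, the inhibitory receptor gene, read 7636, 8420 and 8613 in untreated wild-type cells and 8444, 8433 and 8118 with LPS. In knockout cells it read 7736, 6228 and 7723 untreated and 7791, 6475 and 6500 with LPS. LPS left it within the spread in both genotypes, with intervals that hold changes of -0.20 to 0.24 in wild type (log2 difference 0.02, limma adjusted p = 0.904) and of -0.28 to 0.16 in knockout (-0.06, adjusted p = 0.644). After centring arrays on their 75th percentile the knockout value was 0.15, which did not pass either.

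Every LPS-treated knockout array read below every wild-type one at Fcgr2b, 6922 ± 753 against 8332 ± 185. The log2 difference of -0.27 (SE 0.10) did not pass the test (limma adjusted p = 0.133, and 0.062 to 0.318 in the fits without 1 array). In this comparison 2 of 5 members, Fcgr2b and Fcgr3, had arrays that did not overlap, both lower, where 24.5% of all genes did, 14.2% lower. FcγRIIB is also the Fc receptor of B cells. The summed intensity of 8 measured B cell markers was 1557 to 2302 in untreated and 1259 to 1589 in LPS-treated wild-type cells, and 1268 to 2089 and 1025 to 1557 in knockout cells. Its part in the Fcgr2b level was not tested.

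On each array, log2 of Fcgr3 minus log2 of Fcgr2b gives a measure of the activating against the inhibitory gene whose changes can be compared between groups, though its level cannot be read as a ratio of transcripts. It averaged -0.22 ± 0.05 (SD, n = 3) in untreated wild-type and -0.19 ± 0.04 in untreated knockout cells. With LPS it was -0.85 ± 0.13 in wild type and -1.45 ± 0.35 in knockout. The 3 LPS-treated knockout arrays, at -1.52, -1.77 and -1.07, all lay below the wild-type arrays at -0.95, -0.88 and -0.71. An exact two-sided permutation test gave p = 0.1 for the LPS change in each genotype and for the genotypes with LPS, the smallest p that 3 arrays against 3 allow, and p = 0.7 for the untreated genotypes. With that floor it could not pass at 0.05. The measure was added after the values were seen and holds the Fcgr3 values, so it is not separate from the Fcgr3 result. The 2 receptor genes have closely related extracellular domains, and hybridisation of either transcript to the other probe set was not tested.

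Fcer1g, which encodes the γ chain that the activating receptors need for surface expression and signalling, varied least. Its untreated wild-type arrays read 10209, 10559 and 9407, and with LPS they read 10296, 10392 and 9440. The knockout arrays read 10202, 10175 and 9763 untreated and 9801, 10108 and 9431 with LPS. All groups overlapped, and the 4 two-group differences lay between -0.04 and 0.00 (limma adjusted p from 0.665 to 0.999). Their 95% intervals reached no further than -0.19 and 0.15. Array scaling moved these small values, to 0.15 in wild type and 0.17 in knockout with LPS after centring on the 75th percentile, where the median of all genes stood at 0.193 and 0.284.

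**Figure D2:**
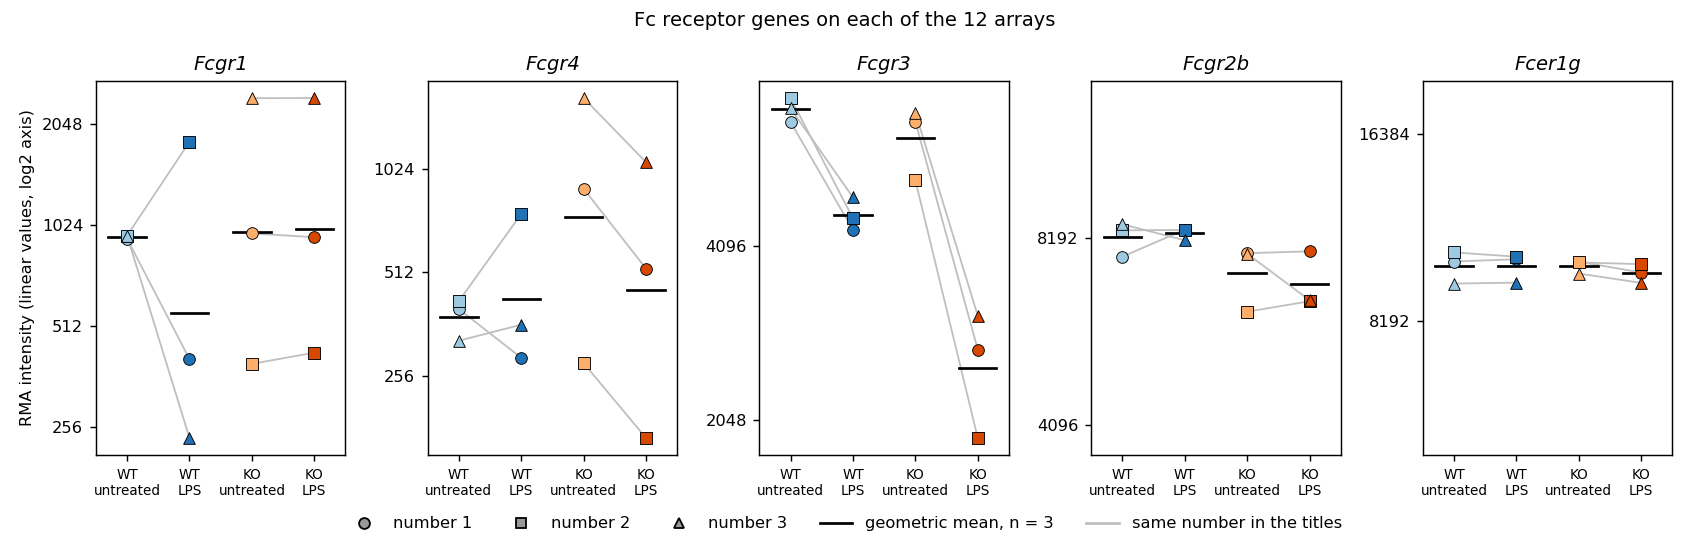
RMA intensity (linear values on a log2 axis) of the 5 measured genes on each of the 12 arrays, by genotype and treatment. Symbols give the replicate number, grey lines join the same number within a genotype, and black bars are geometric means of 3 arrays. Fcgr3 fell with LPS in both genotypes, Fcgr1 and Fcgr4 spread widely in the knockout and in LPS-treated wild-type cells, and Fcgr2b and Fcer1g stayed in a narrow range.

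Fcgr1, the high-affinity receptor gene and a known target of interferon signalling, did not pass the test in any comparison, but its arrays ranged widely in 3 of the 4 groups. Untreated wild-type arrays read 932, 952 and 951, within 1.02-fold of each other. LPS-treated wild-type arrays read 407, 1817 and 237, which is 7.68-fold from lowest to highest. Untreated knockout arrays read 966, 394 and 2452, and LPS-treated ones 942, 426 and 2455.

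In the knockout, the arrays of 1 number therefore read almost alike with and without LPS. The LPS array stood at 0.975, 1.08 and 1.00 times its same-numbered untreated array, while numbers 2 and 3 differed 6.22-fold untreated. In wild type the same ratios were 0.437, 1.91 and 0.249, so that LPS-treated array 2 stood above and arrays 1 and 3 below the untreated level. With LPS the wild-type arrays differed by -0.76 on the log2 scale (SE 0.81, limma adjusted p = 0.53) and the knockout arrays by 0.03 (SE 0.81, adjusted p = 0.983). Between genotypes it was 0.05 untreated and 0.83 with LPS (SE 0.81, adjusted p = 0.99 and 0.653). The 95% intervals were wide, from -1.75 to 1.80 for the knockout response and from -0.94 to 2.61 between genotypes with LPS. Single arrays moved these values. The wild-type response was -1.61 without LPS-treated array 2 and -0.14 without array 3, and the difference between genotypes with LPS ran from 0.18 without knockout LPS array 3 to 1.68 without wild-type LPS array 2.

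Fcgr4 encodes FcγRIV, a γ-chain receptor for IgG2a and IgG2b found on monocytes, macrophages and neutrophils. It read 401, 422 and 324 in untreated wild-type cells and 289, 756 and 361 with LPS. In knockout cells it read 895, 279 and 1641 untreated and 525, 169 and 1069 with LPS. The groups overlapped in all comparisons, and knockout arrays numbered 3 were the highest and those numbered 2 the lowest of all 6 arrays of each treatment.

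Untreated knockout cells averaged 938 ± 682 at Fcgr4 against 382 ± 52 in wild type. Only 66 of the 19938 genes had a larger positive log2 difference than its 0.97, yet with an SE of 0.69 it did not pass (limma adjusted p = 0.717). Without untreated knockout array 3 the difference was smaller and without array 2 larger, between 0.40 and 1.67 over the fits that left out 1 array. With LPS the genotypes differed by 0.09 (adjusted p = 0.97), a value that ran from -0.53 to 0.80 in the same fits.

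Within the knockout, Fcgr4 was lower with LPS for each number, at 0.586, 0.607 and 0.651 times the untreated array. The fit of 4 group means gave -0.70 (SE 0.69, limma adjusted p = 0.417). With the number as a block in the knockout the SE was 0.28, and the difference did not pass (adjusted p = 0.0559). With the number as a block within each genotype it passed (SE 0.19, adjusted p = 0.0149), although the wild-type numbers did not pair the arrays throughout. In wild type the ratios were 0.723, 1.79 and 1.11, and the difference was 0.18 (adjusted p = 0.877).

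Fcgr1 and Fcgr4 varied together from array to array, so the 250 bases before the RefSeq start of each are shown (GRCm38.p6). Those of Fcgr3, the member called lower with LPS, are shown for comparison. All 5 measured members had an entry in the promoter table, Fcgr3 with 2 start sites, of which the upstream one is shown. Capitals mark matches to the motifs TTCNNNGAA (the GAS element of interferon-inducible promoters) and GAGGAA (a core of sites for the myeloid factor PU.1) in Fcgr1, at chr3:96293970-96294219 on the minus strand. In Fcgr4, at chr1:171018676-171018925 on the plus strand, they mark GAAA, any 2 bases and GAAA (a form of the site that interferon regulatory factors bind) and GAGGAA. In Fcgr3, at chr1:171059404-171059653 on the minus strand, they mark GGG, any 2 bases and TTTCC (a form of the NF-κB site), TTGCNNAA (a form of the C/EBP site) and GAGGAA.
Fcgr1: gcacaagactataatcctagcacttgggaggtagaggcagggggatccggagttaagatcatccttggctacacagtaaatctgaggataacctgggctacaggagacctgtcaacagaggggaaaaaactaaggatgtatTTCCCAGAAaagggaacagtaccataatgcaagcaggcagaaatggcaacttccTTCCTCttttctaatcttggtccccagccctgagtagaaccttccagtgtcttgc
Fcgr4: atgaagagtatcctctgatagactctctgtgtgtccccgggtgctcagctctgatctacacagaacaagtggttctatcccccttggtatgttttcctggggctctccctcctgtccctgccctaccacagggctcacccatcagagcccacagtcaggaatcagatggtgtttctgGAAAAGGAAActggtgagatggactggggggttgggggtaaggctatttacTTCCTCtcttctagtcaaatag
Fcgr3: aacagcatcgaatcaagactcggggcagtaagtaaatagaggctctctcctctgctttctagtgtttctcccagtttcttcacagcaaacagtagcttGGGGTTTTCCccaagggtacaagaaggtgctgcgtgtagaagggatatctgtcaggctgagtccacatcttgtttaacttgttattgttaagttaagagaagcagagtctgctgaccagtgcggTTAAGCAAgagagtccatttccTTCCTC

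Both strands were searched for 7 motifs, these and TGANTCA (AP-1) and CATGTG (an E-box), with no overlap between the marked matches. The GAS match of Fcgr1, TTCCCAGAA, begins 109 bases before the start, and 7.02% of the 32851 promoters in the table hold that motif in the same window. The match in Fcgr4, GAAAAGGAAA, begins 73 bases before its start, and 2.98% of promoters hold its motif. The NF-κB form in Fcgr3, GGGGTTTTCC, begins 152 bases before the start (1.41% of promoters), and its C/EBP form 28 bases before (9.56%). A GAGGAA core stood in these 3 windows and in 23.3% of all, while the windows of Fcgr2b and Fcer1g held none of the 7. The window of the other Fcgr3 start, which overlaps this one, held the same matches. These matches describe the letters and do not show binding.

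Interferon-stimulated genes also differed between arrays within groups. Their mean log2 level, over the 24 measured, stood at 11.14, 12.08 and 9.55 in wild-type cells given LPS, where Fcgr1 was also highest on array 2 and lowest on array 3. In untreated knockout cells it stood at 8.70, 8.39 and 10.1, and there Fcgr1 and Fcgr4 were both highest on array 3 and lowest on array 2. In knockout cells given LPS it was more even, at 12.32, 12.39 and 12.58, while Fcgr1 ranged from 426 to 2455. Untreated wild-type arrays stood at 8.38, 8.35 and 7.78.

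Across treatments the pattern did not hold. LPS raised 21 of 24 interferon-stimulated genes in wild type (median log2 difference 2.68, against 0.04 for all genes) and 23 of 24 in knockout (3.67, against 0.07), where 9.53% and 21.9% of all genes rose, and Fcgr1 was called in neither. As deviations from group means over the 12 arrays, which share their RNA and normalization, Fcgr1 correlated with the mean level of those genes at r = 0.79 and Fcgr4 at r = 0.55. Over the undivided arrays the values were 0.21 and 0.14. The part of interferon signalling in the spread of either gene was not tested.

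The members most alike were Fcgr1 and Fcgr4, at r = 0.82 over the 12 arrays and 0.90 as deviations from group means. Fcgr3 and Fcgr4 correlated at 0.295 and 0.86. As described above for other genes, knockout arrays numbered 2 stood apart. Untreated and LPS-treated, they were the lowest of their groups at Fcgr1, Fcgr3 and Fcgr4. Fcgr2b was also lowest on number 2 in both, at 6228 and 6475, whereas Fcer1g was not.

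Among 9534 other genes of at least median level, those whose log2 values followed Fcgr4 most closely over the 12 arrays were Tpsb2 (r = 0.94), Septin10 (0.93) and Cpa3 (0.92). Tpsb2 encodes a mast cell tryptase and Cpa3 the mast cell carboxypeptidase. Tpsb2 read 255, 337 and 233 in untreated and 209, 345 and 259 in LPS-treated wild-type cells. In knockout cells it read 495, 320 and 873 untreated and 398, 176 and 743 with LPS, so number 3 was highest and number 2 lowest, as for Fcgr4. Cpa3 read 314, 179 and 674 and then 287, 84.8 and 513 on the same knockout arrays, and 132 to 189 and 98.6 to 177 on the wild-type ones.

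Of the 9 mast cell markers, 7 followed Fcgr4 within groups at r of at least 0.76, namely Cma1 (0.97), Tpsb2 and Cpa3 (0.96 each), Mcpt4 (0.94), Fcer1a (0.94), Kit (0.86) and Hdc (0.76). Tpsab1 (0.11) and Ms4a2 (-0.41) did not. Over the 12 undivided arrays Hdc did not follow Fcgr4 (r = -0.01), whereas the rest of the 7 stood at 0.84 or more. LPS raised Hdc by 4.39 on the log2 scale in wild type and by 3.91 in knockout. Fcer1a and Ms4a2, the chains that define the IgE receptor, stayed between 27.0 and 41.3 on all arrays, below the median of all gene values. The summed intensity of the list without Hdc, which read 275 to 442 in untreated and 6942 to 7875 in LPS-treated wild-type cells, was 928 to 1055 and 757 to 1123 in wild type, and 1200 to 2947 and 806 to 2654 in knockout, untreated and with LPS. Over the same 7 markers, within-group r ran from 0.58 to 0.895 for Fcgr1 and from 0.70 to 0.92 for Fcgr3. Tpsab1 (0.08 with Fcgr1 and 0.17 with Fcgr3) and Ms4a2 (-0.21 and -0.61) did not follow these genes either. The share of all genes that followed these receptor genes as closely was not counted. The part of mast cells in the levels of Fcgr4, Fcgr1 or Fcgr3 was not tested.

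**Figure D3:**
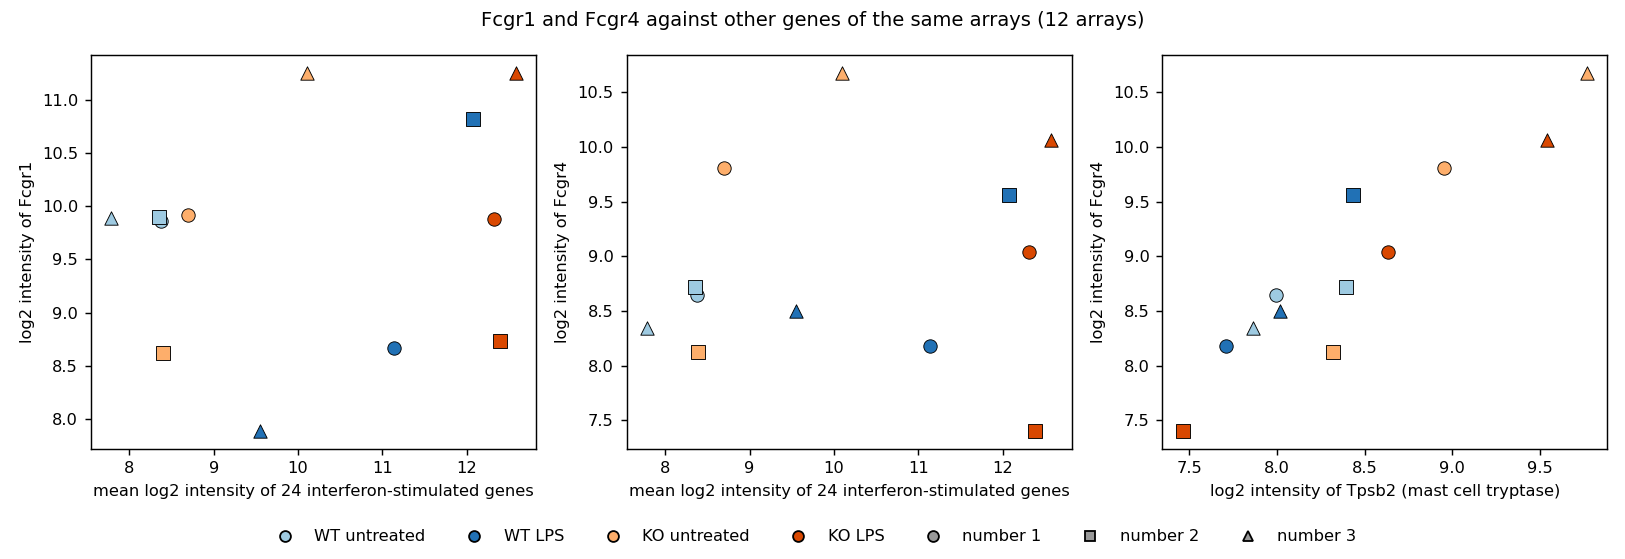
Log2 intensity of Fcgr1 (left) and Fcgr4 (middle) against the mean log2 intensity of 24 interferon-stimulated genes, and of Fcgr4 against the mast cell gene Tpsb2 (right), on the 12 arrays. Colours give the group and symbols the replicate number. Fcgr4 followed Tpsb2 over all arrays (r = 0.94), whereas both receptor genes followed the interferon-stimulated genes only weakly over all arrays (r = 0.21 and 0.14).

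The genes closest to the other members were of different kinds. For Fcgr1 they were the lectin-like receptor gene Klra2 (r = 0.96), Selenow (0.94) and Pxk (0.93). For Fcgr3 they were Svil (0.98), which encodes an actin-binding protein, Pfkfb4 (0.98) and Gba2 (0.97), and Svil fell with LPS from 917, 956 and 1106 to 545, 488 and 671 in wild type and from 919, 728 and 1042 to 359, 278 and 432 in knockout. For Fcgr2b they were the integrin gene Itga1 (0.91), Nipsnap3b (0.90) and Wfdc17 (0.89). Itga1 was low on both knockout arrays numbered 2, at 162 and 175, against 504 to 880 on the other knockout arrays. For Fcer1g they were Anxa5 (0.79), Cd300c (0.78) and Dynlrb1 (0.74). These r hold changes between groups as well. As deviations from group means, and in the same order, r was 0.97, 0.94 and 0.95 for Fcgr1 and 0.87, 0.81 and 0.76 for Fcgr3. It was 0.84, 0.76 and 0.77 for Fcgr2b and 0.88, 0.82 and 0.81 for Fcer1g.

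The proximal pathway below the receptors changed with LPS in both genotypes. Syk, the kinase that binds the phosphorylated γ chain, read 2312 to 2697 untreated and 3486 to 3986 with LPS in wild type (log2 difference 0.58, SE 0.08) and by 0.40 in knockout. Tyrobp, which encodes DAP12, the other ITAM adaptor of macrophages, fell by 0.42 on the log2 scale in wild type and by 0.55 in knockout. All 4 changes passed the test.

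Of 28 measured activating signalling genes, LPS raised 8 and lowered 11 in wild type and raised 8 and lowered 14 in knockout. These were 67.9% and 78.6% of the list, against 28.1% and 45.7% of all genes, and the list's median was -0.04 and -0.24. Most changed in both genotypes were the adaptor gene Lat2 (-1.99 and -1.84), Malt1, which encodes the paracaspase of the CARD9 complex (1.95 and 2.28), and the kinase gene Src (1.39 and 1.82). After centring arrays on the 75th percentile the counts were 11 higher and 10 lower in wild type, and 8 and 10 in knockout.

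Among inhibitory signalling genes more fell than rose with LPS. Of 19 measured, 10 fell and 2 rose in wild type (median -0.48) and 12 fell and 2 rose in knockout (median -0.64), against 18.5% and 23.8% of all genes lower. With arrays centred on the 75th percentile 9 and 11 still fell. Inpp5d, which encodes SHIP-1, the phosphatase that FcγRIIB recruits, read 3099 to 3144 untreated and 961 to 1329 with LPS in wild type, a log2 difference of -1.52 (SE 0.24, limma adjusted p = 5.78e-04), and it fell by 1.50 in knockout. Cd300a, an ITIM receptor gene, changed by -2.44 and -2.67, the phosphatase gene Ptpn22 by -1.21 in wild type and the Csk-anchoring adaptor gene Pag1 by -1.69 in knockout. Ptpn6, which encodes the phosphatase SHP-1, fell by 1.09 in knockout and by 0.50 in wild type, where the call was lost in 8 of the 12 fits without 1 array (-0.63 to -0.40). The wild-type call was also lost under quantile normalization and with arrays centred on the 75th percentile.

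Of 12 other ITAM-linked receptor and adaptor genes LPS raised 3 and lowered 3 in each genotype, 50% of the list, against 28.1% of all genes in wild type and 45.7% in knockout, so that the knockout share was near that of all genes. Trem2 was 2.14-fold lower in wild type and 1.90-fold lower in knockout, Trem3 rose by 1.57 in wild type and Clec5a, a DAP12-coupled lectin gene, by 0.96 in knockout. Trem1 rose by 3.06 and 2.59, calls lost in 6 and 10 of the 12 fits without 1 array (2.79 to 3.26 and 1.85 to 3.98). Its knockout call was also lost with arrays centred on their median. Among 14 other immunoglobulin and Fc-like receptors, Trim21, the interferon-inducible cytosolic receptor for IgG, rose by 1.42 in wild type and 2.50 in knockout. Fcrla (-0.88) and the B cell lectin gene Cd22 (-0.77) fell in wild type. The Cd22 call was lost in 3 of the fits without 1 array, those without wild-type LPS array 2 (-0.73) or 3 (-0.76) or untreated array 2 (-0.56). It was also lost under quantile normalization. In knockout Cd22 fell by 1.36 and Fcer2a, the low-affinity IgE receptor gene, rose by 0.81. Fcer2a was dim there, at 37.9 to 49.5 untreated and 58.4 to 106 with LPS, below the median of all gene values (140.8). In total 2 rose and 3 fell in wild type, and 3 rose and 4 fell in knockout, 35.7% and 50% of the list, both near the 28.1% and 45.7% of all genes.

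Phagocytic cup and actin genes changed in 20 of 33 cases in wild type, 8 higher and 12 lower, and in 21 in knockout, 7 higher and 14 lower. Marcksl1 rose by 2.73 and 3.10, Marcks by 1.39 in wild type, and the filopodial myosin gene Myo10 by 1.55 in knockout, while Myo1f fell by 2.26 and 1.95. These were 60.6% and 63.6% of the list, against 28.1% and 45.7% of all genes. Centred on the 75th percentile, the counts were 10 higher and 9 lower in wild type and 11 and 8 in knockout. Of 5 measured phagocyte oxidase genes 2 fell in each genotype, Ncf1 by 0.94 and 1.13 and Cyba by 0.29 and 0.33, a share of 40% that is below the 45.7% of all genes in knockout. The call of Ncf1 in wild type was lost without LPS-treated array 2 (-0.81) or untreated array 1 (-0.88), and Cyba was not called after centring on the 75th percentile. B2m, the light chain that FcRn shares with class I molecules, did not pass in any comparison, with log2 differences from -0.08 to 0.20.

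With LPS, the genotypes differed at fewer of these genes. Lower in knockout were 3 of 28 activating genes, Blnk (-1.12), Pik3cg (-0.80) and Shc1 (-0.40), and 4 of 19 inhibitory genes, among them Dok2 (-0.66), Ptpn6 (-0.65) and Cd47 (-0.47). Clec5a was higher (1.04). Of 33 cup and actin genes 5 were lower and 4 higher, with Rac2, the GTPase of phagocyte oxidase and actin assembly (-1.38), Coro1a (-1.17) and Myo10 (0.94) foremost. The shares were 10.7%, 21.1% and 27.3% against 8.14% of all genes. Calls of Blnk, Shc1, Ptpn6 and Myo10 were lost in 7, 8, 5 and 6 of the 12 fits without 1 array, with values of -1.42 to -0.91, -0.50 to -0.33, -0.87 to -0.53 and 0.82 to 1.07, and Coro1a without wild-type LPS array 3 (-1.14). Blnk and Shc1 were also not called under quantile normalization, nor was Shc1 with arrays centred on the 75th percentile. In untreated cells limma called 0 of the 113 genes in the 7 pathway lists, and 9 had an unadjusted p under 0.05, 7.96% against 8.68% of all genes. Coro1a, though not called there, read 531 to 812 in untreated knockout and 901 to 1249 in untreated wild-type cells. For the difference of LPS responses limma called 1 of the 113, Rac2, against 0.747% of all genes. For the others a genotype difference that arises with LPS was thus not shown.

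**Figure D4:**
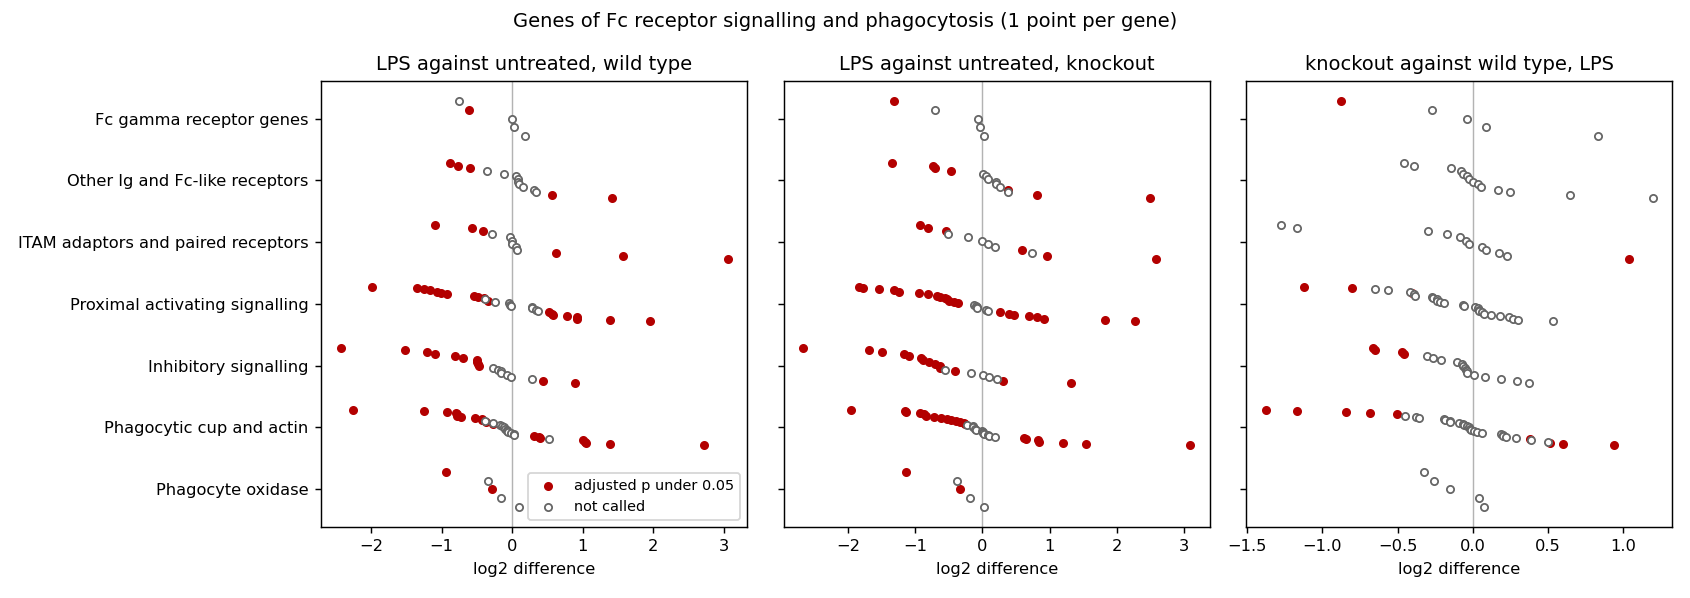
Log2 differences of genes in 7 lists of Fc receptors, their signalling and phagocytosis, for LPS against untreated in each genotype and for knockout against wild type with LPS, 1 point per gene. Filled red points have a limma adjusted p under 0.05. Among inhibitory signalling genes more red points lie below 0 than above with LPS (10 of 19 fell and 2 rose in wild type, 12 fell and 2 rose in knockout), and fewer points are filled in the comparison of genotypes.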

How the data were processed

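The authors deposited 1 linear intensity per probe set on each array. The submitters' processing notes name RMA and Affymetrix Expression Console 1.1, with settings not given in the sources used here. The design allowed for log2 or linear values, and log2 was taken with no pseudocount. Of 35556 probe sets 21789 had 1 gene symbol, 1621 several and 12146 none. The brightest probe set per gene was kept (999 genes had several), which left 19938 genes. Array medians were 110.4 to 118.7, and correlations within groups were 0.984 to 0.994. The number of arrays limits the precision.

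Tests used limma 3.58.1 in R 4.3.3 (two-sided, 4 group means, 8 residual degrees of freedom). On simulated data with 19938 genes, 86% of 2-fold changes were recovered for LPS in wild type. For the genotypes with LPS it was 89% and for the difference of responses 71%, with changes planted in brighter genes only. The simulated arrays varied independently and held 100 changed genes per fold size, unlike the data, so these rates may not hold for the tests above. Replicate numbers were checked by correlating deviations from group means of same-numbered arrays over all genes, which for numbers 1 to 3 gave 0.322, 0.568 and 0.459 (knockout) or -0.07, 0.143 and 0.359 (wild type). By the rule that every pair must exceed 0.1, the numbers were taken as pairs in the knockout only. Arrays of different numbers gave -0.476 to 0.132 in the knockout and -0.303 to 0.328 in wild type, so some of them also exceeded 0.1.

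Members, gene lists (19, with 227 of 252 entries measured) and tests were chosen with earlier results of these data known. Genes were named by a rule: all members, Syk, Tyrobp, B2m, Inpp5d and Ptpn6, up to 3 called genes of largest change per pathway list and comparison, and the 3 genes most correlated with each member. Within-group correlations and the log2 Fcgr3 minus Fcgr2b measure were added after the values were seen. Promoter sequences are RefSeq's (GRCm38.p6), and the 50 bases after each start were left out. Results were recomputed with 3 further array scalings, without dim genes, with a trended prior, weighted arrays or replicate blocks, over all or averaged probe sets, on 6 arrays, with a pseudocount of 16, against a minimum fold of 1.2 and without single arrays or pairs of arrays.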

Additional observations from a re-analysis of the deposited data

Results flagged for a closer look

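For Rac2 the test of the difference in LPS response between genotypes passed, at -1.32 (SE 0.11, limma adjusted p = 3.34e-04). It read 5047, 4438 and 4701 in untreated and 6038, 5932 and 6682 in LPS-treated wild-type cells, and 4661, 4589 and 4390 and then 2247, 2526 and 2410 in knockout cells, so LPS raised it in wild type (0.39) and lowered it in knockout (-0.93), without overlap in either.

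For Fcgr3 that test did not pass as planned (adjusted p = 0.183), nor with the planned block of shared numbers. It passed only with the replicate number as a block in the knockout alone or within each genotype, both added after the data were seen. With the block in the knockout, the difference of responses was -0.71 (limma adjusted p = 0.0161). Groups of 3 arrays were not searched for single arrays that stand apart.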

How the results depend on the processing

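The log2 differences of the 5 members were recomputed 695 times under other settings. Direction and side of the threshold were kept in 650, 37 changed sign, 5 lost a call and 3 gained one. No member that was called changed sign, and the cause of the changes was not tested.

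Counts of called members changed as follows. With a minimum change of 1.2-fold, 0 were called in wild type with LPS and 0 between genotypes with LPS. The 6-array fit called 0 between genotypes with LPS, and leaving out both wild-type LPS arrays numbered 2 and 3 gave 0 in both comparisons. The replicate block within each genotype called 2 in knockout with LPS (Fcgr4 at adjusted p = 0.0149) and 1 for the difference of responses (Fcgr3, adjusted p = 0.0281), and the block in the knockout alone 1. The planned block, with numbers shared by all groups, changed no call of a member.

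Counts over all genes moved more. For wild type with LPS (5594) they were 10190 after centring on the 75th percentile, 10113 with array weights, 2504 with the minimum fold and 3256 without both wild-type LPS arrays. For knockout with LPS (9105) they were 14386 and 3879 on the 75th percentile and with the minimum fold. For untreated genotypes (15) they were 24 with quantile normalization, 25 on the 75th percentile, 46 with weights, 30 with the shared replicate block, 2 with 6 arrays, 7 with the minimum fold, 81 without both knockout arrays numbered 2 and 8 without both wild-type LPS arrays, and 6 to 23 leaving out 1 array. For genotypes with LPS (1623) they were 3296 with weights, 492 with 6 arrays, 300 with the minimum fold, 993 without both knockout arrays numbered 3 and 385 without both wild-type LPS arrays. Leaving out 1 array gave 712 to 2158, the lowest without wild-type LPS array 3, with 754 without array 1 and 1076 without knockout LPS array 3. For the difference of responses (149) they were 667 with weights, 86 with all probe sets, 36 with the minimum fold, 296 and 347 with the replicate block in each genotype or the knockout alone, 82 without knockout arrays 3, 42 without both wild-type LPS arrays and 55 to 365 without 1 array. The share of higher calls in wild type with LPS was 34% as deposited, 44.5% with quantile normalization and 72.8% on the 75th percentile. In knockout it was 47.9% and, on the 75th percentile, 76.6%, between genotypes with LPS 40.2% and 52.6%, and for the difference of responses 40.3% and 55.6%. Among the 15 calls of the untreated comparison it was 46.7%, and 63.2% on the median.

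Sign changes touched only differences that did not pass. Fcer1g turned with quantile normalization (0.070 in wild type with LPS, 0.0017 between untreated genotypes), on the median (0.041 untreated), on the 75th percentile (0.15 and 0.17 with LPS in wild type and knockout, 0.020 between genotypes with LPS, 0.021 for responses), with weights (0.028 in wild type and 0.0053 untreated), without knockout arrays 3 (0.020 untreated) and without both wild-type LPS arrays (0.035 in wild type). Fcgr2b turned on the 75th percentile (0.15 in knockout) and without knockout arrays 3 (0.033, and 0.013 for responses). Fcgr1 in knockout turned on the median (-0.020) and without knockout arrays 2 (-0.017), and untreated without knockout arrays 3 (-0.62). Fcgr4 turned in wild type with weights (-0.23) and without both wild-type LPS arrays (-0.39), and between genotypes with LPS without knockout arrays 3 (-0.53). Leaving out 1 array, the ranges were -0.63 to 0.69 for Fcgr1 in knockout and -0.62 to 0.70 untreated, -0.032 to 0.055 for Fcgr2b in wild type, -0.23 to 0.46, -1.41 to 0.011 and -0.53 to 0.80 for Fcgr4 in wild type, knockout and between genotypes with LPS, and -0.049 to 0.042, -0.048 to 0.036 and -0.081 to 0.010 for Fcer1g in wild type, untreated and for responses.

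Dim probe sets understate fold changes, and 3 arrays a group leave wide intervals for Fcgr1 and Fcgr4. Pairs and blocks other than the shared block were added after the data were seen.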
